A study of Homo sapiens with 2 samples.

Results

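Short introns that separate coding exons were examined in a nucleosome map of ARPE-19, an established line of human retinal pigment epithelium, grown in ordinary culture and taken in interphase. Members were defined by annotation alone: introns of 70 to 250 bp that lie between coding exons of MANE Select transcripts (the 1 reference transcript per gene agreed between Ensembl and RefSeq) in GENCODE 44, on chromosomes 1-22. The definition was made with earlier results of these data known. Of 165654 introns between coding exons, 25295 met the rule, or 15.3%, in 7764 genes. MNase-seq digests DNA that is not protected by nucleosomes and sequences the rest, and the labels list 2 samples of these cells, batches 1 and 2, with no treated or control arm. The deposited list gives 2634347 points on hg38, 2558490 of them distinct and on the autosomes, without height and without saying which batch a point came from. Which point of a protected fragment a row marks is not given in the sources used here, so each is called a position. Density is given as positions per kb of determined sequence, and the autosomes as a whole had 0.928 per kb. There is thus 1 map without replicates. Errors are SDs over the 22 autosomes. Autosomes of 1 map do not stand in for separate cultures. These SDs thus describe only the spread between chromosomes. The p-values describe only whether the mean over chromosomes exceeded, in size, what random flips of sign would give.

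An intron begins at the donor (5') splice site, nearly always GT, and ends at the acceptor (3') splice site, nearly always AG, which follows a tract rich in pyrimidines. Nucleosomes bend their DNA sharply, and GC-rich sequence is generally wrapped more readily than sequence rich in A and T. How far digestion, sequencing and calling themselves vary with GC content was not tested here, so densities below are those of called positions. In mammalian genes with long introns, exons are richer in GC than the introns around them and are known to carry more nucleosomes. Short introns tend to lie in GC-rich genes, where the splicing machinery is thought to recognise the intron, rather than the exon, as its unit.

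The following members show units with a GC-rich intron, the kind in which the preference for exons was lost or turned, as reference sequence of hg38 read on the gene's own strand. Each sequence runs from 30 bases of the upstream exon, in lower case, through the whole intron, in capitals, to 30 bases of the downstream exon. The first was chosen as an illustration by its positions and the GC content of the unit, with an intron of the median length. The second was chosen as a member of 70 to 80 bp without a position, and its GC content played no part in the choice. No result rests on them. In SHMT2, the mitochondrial serine hydroxymethyltransferase, intron 11 of 11 (chr12:57234111-57234233, plus strand, 123 bp) has 59.3% GC against 52.3% in its exons, and its single position lay in the intron, at base 79. In AGRN, which encodes the proteoglycan agrin, intron 5 of 35 (chr1:1041398-1041477, plus strand, 80 bp) has 77.5% GC against 72.2%, and neither the intron nor its exons held a position.

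SHMT2 intron 11: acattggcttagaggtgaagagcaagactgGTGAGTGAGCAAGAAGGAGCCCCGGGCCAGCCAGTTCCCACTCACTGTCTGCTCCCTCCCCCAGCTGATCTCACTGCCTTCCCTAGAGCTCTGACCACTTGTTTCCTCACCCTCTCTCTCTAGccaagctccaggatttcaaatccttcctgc

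AGRN intron 5: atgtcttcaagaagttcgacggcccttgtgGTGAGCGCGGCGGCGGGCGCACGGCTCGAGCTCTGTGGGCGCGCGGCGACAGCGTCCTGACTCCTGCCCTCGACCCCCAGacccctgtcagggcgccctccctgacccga

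Taken over all members, the introns were nearly as rich in positions as the exons they separate. The introns held 3229 positions in 3505 kb, or 0.921 per kb (95% exact Poisson interval 0.890 to 0.954, counting error only). The upstream exons, the one before the intron in the direction of transcription, held 1.02 per kb (0.990 to 1.06), and the downstream exons 1.00 per kb (0.971 to 1.04). The coding part of each exon was counted. Exons together thus had 1.10 times the density of the introns between them, with 1.01 per kb. Averaged over chromosomes, the intron density was 0.852 per kb ± 0.219 (SD, n = 22). Chromosome 4 had the lowest value, 0.410, and chromosome 3 the highest, 1.23. For the upstream exons it was 1.03 ± 0.236, from 0.609 on chromosome 20 to 1.45 on chromosome 2. That of the downstream exons was 1.02 ± 0.238, with the lowest and highest values, 0.585 and 1.40, on the same chromosomes 20 and 2. The ranges of introns and exons over chromosomes overlapped widely.

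The map is sparse at this scale. An intron held no position in 88.5% of members (95% Wilson interval 88.1 to 88.9%), exactly 1 in 10.2%, and 2 or more in 1.24%, with at most 3. In 70.9% of members neither the intron nor either exon held a position. Statements below are therefore about sums over many introns, and single members are too thinly covered to be compared.

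Paired within chromosomes, the log2 ratio of exon to intron density was 0.28 ± 0.55 (SD, n = 22), higher in exons on 14 of 22 chromosomes. In a two-sided sign-flip permutation test this gave p = 0.0268, or 0.0341 after Benjamini-Hochberg adjustment over the 14 comparisons made here. The upstream exons stood at 0.29 ± 0.55 against the intron (15 of 22 chromosomes, permutation p = 0.0193, adjusted 0.0270) and the downstream exons at 0.27 ± 0.57 (14 of 22, permutation p = 0.0332, adjusted 0.0387). The difference between downstream and upstream exons was -0.016 ± 0.12, below 0 on 16 of 22 chromosomes, and did not pass the test (permutation p = 0.569). Dividing by the density expected from the GC content of the surrounding 200 bp took the exon-to-intron ratio to 0.19 ± 0.45, which no longer passed (permutation p = 0.0644). With internal exons of 100 to 300 bp alone the ratio was larger, 0.57 ± 0.85, on 19 of 22 chromosomes (permutation p = 0.00028). A GC window of 100 bp in place of 200 left 0.065 ± 0.41 (permutation p = 0.467). Without chromosomes 9 and 15, which have the highest densities of all autosomes (1.26 and 1.23 per kb), the ratio was again 0.28, but it missed the threshold after adjustment (permutation p = 0.0433 before it).

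The spread between chromosomes was wider than the mean difference. The preference for exons was strongest on chromosomes 18, 4 and 13, with log2 ratios of 1.56, 1.40 and 1.14. Short introns there had 38.3, 39.6 and 39.1% GC. Introns were the denser part on 8 chromosomes. Of these, chromosomes 20, 8, 22, 19 and 16 stood at -0.44, -0.43, -0.29, -0.22 and -0.21, where the short introns had 59.4, 55.7, 63.4, 63.5 and 61.2% GC. Chromosomes 10, 7 and 3 were closer to 0, at -0.096, -0.064 and -0.048, and their short introns had 47.9, 55.4 and 52.7% GC. Across the 22 chromosomes the log2 ratio and the GC content of the introns had a Pearson correlation of -0.87 and a Spearman correlation of -0.80, and Pearson's value was -0.80 without the 2 chromosomes farthest from the median GC content. This is a description, given without a p-value, since the chromosomes come from the same list and differ in gene content. Chromosomes 13, 18 and 21 rest on 15, 9 and 11 intronic positions.

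**Figure D1:**
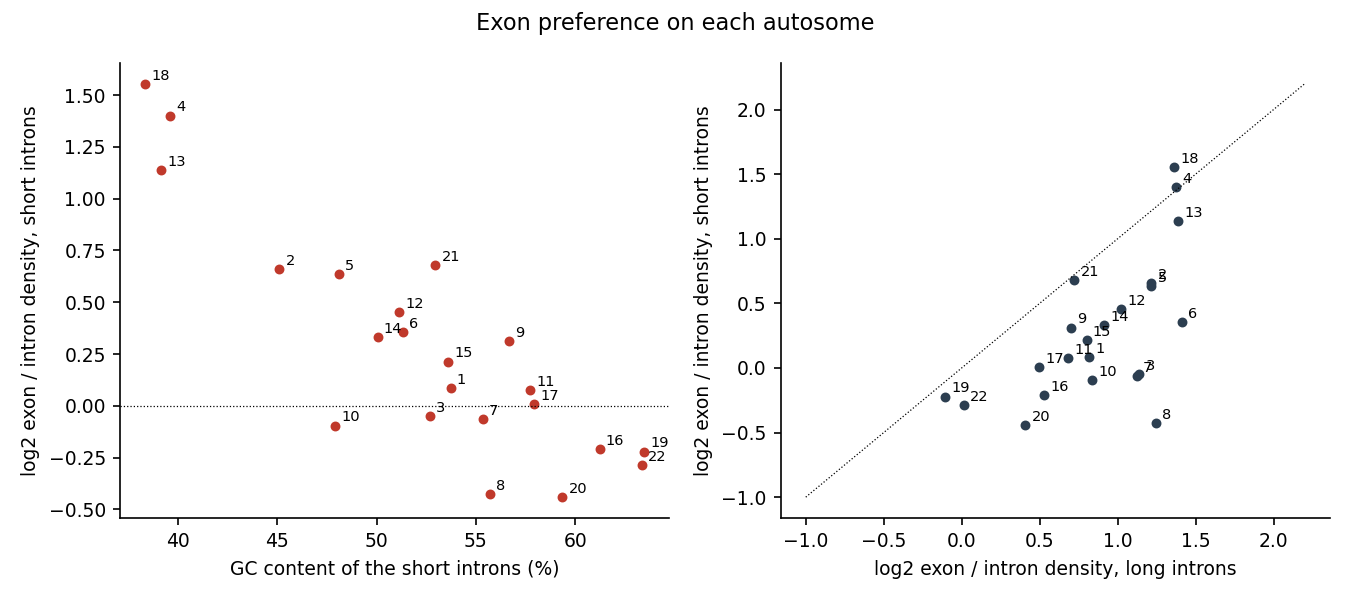
Left, log2 ratio of exon to intron density at introns of 70-250 bp against the GC content of those introns (%), 1 point per autosome with its number. Right, the same log2 ratio against that of exons between introns of 1000 bp or more, with the dotted line marking equal values. Chromosomes 18, 4 and 13 lie highest and at the lowest GC content, and 20 of 22 points on the right lie below the line.

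The comparison set consisted of 64553 internal coding exons with introns of 1000 bp or more on both sides, in 11306 genes. These exons held 1.30 positions per kb, against 0.679 per kb in the 60 bp of intron next to them on either side, which is 1.91 times as much. By chromosome the preference for exons came to 0.88 ± 0.43 in log2 (SD, n = 22) and was present on 21 of 22 (permutation p = 1e-05, the smallest the test can give, adjusted 2.33e-05). Set against the GC expectation it was 0.58 ± 0.30 with the 200-bp window and 0.30 ± 0.22 with the 100-bp one, on 20 of 22 chromosomes each. The preference at short introns was smaller by 0.60 ± 0.44 on the log2 scale, on 20 of 22 chromosomes (permutation p = 1e-05, adjusted 2.33e-05). After the same correction the difference was -0.39 ± 0.37 with the 200-bp window (20 of 22 chromosomes, permutation p = 6e-05) and -0.24 ± 0.36 with the 100-bp one (18 of 22, permutation p = 0.00399). In the 4901 genes that hold both kinds of unit, the difference was -0.43 ± 0.44, again on 20 of 22 chromosomes (permutation p = 0.00018). Exon preference as found at long introns therefore did not hold to the same size at short ones when each exon was set against the intron sequence beside it.

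Both sides of the ratio contributed. Exons beside short introns were less dense than exons between long introns, by -0.31 ± 0.28 in log2, a direction shared by 20 of 22 chromosomes (permutation p = 1e-05, adjusted 2.33e-05). Genes with both kinds of unit gave -0.16 ± 0.23, and the value was -0.65 ± 0.37 with the 100-bp GC expectation. Both passed the test. Short introns were denser than the near 60 bp of long introns, by 0.29 ± 0.43 in log2, a direction shared by 16 of 22 (permutation p = 0.00486, adjusted 0.00756). The latter direction depended on what was compared. With the 200-bp GC expectation it was -0.020 ± 0.30 (permutation p = 0.761), and with the 100-bp one it turned to -0.41 ± 0.29 (permutation p = 1e-05). The difference in preference also depended on the reference within long introns: 300 to 500 bp from the exon these held 0.959 positions per kb, more than the 60 bp beside it. Against that window the exon preference at long introns was 0.38 ± 0.25 and the difference between short and long introns was -0.098 ± 0.48 (permutation p = 0.350). A short intron has no such distant part.

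Exons could also be ordered by the introns on their 2 sides, counting each internal, wholly coding exon once. The 8675 exons with short introns on both sides had 0.956 positions per kb (95% exact Poisson interval 0.899 to 1.01) and 59.0% GC. Those with a short intron before and a long one after (7361 exons) had 1.07 (1.01 to 1.14), and those in the opposite order (8080 exons) 1.11 (1.05 to 1.18), at 51.9 and 52.2% GC. Exons with long introns on both sides had 1.30 (1.28 to 1.32) and 48.4% GC. Density therefore fell with the number of short neighbours while GC content rose. The 2 mixed kinds did not differ beyond counting error. Relative to the 200-bp GC expectation the 4 kinds stood at 0.664, 0.858, 0.868 and 1.10 times. Median lengths were 114, 115, 116 and 126 bp.

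Profiles from the splice sites, in bins of 10 bp and counting only exon bases on the exon side and intron bases on the intron side, showed the difference in shape. At exons between long introns, density climbed from 0.716 per kb just after the acceptor to 2.08 per kb in the bin 50 to 60 bp into the exon. From the donor side it rose from 1.02 per kb in the last 10 bp of the exon to 1.90 per kb at 80 to 90 bp inside. In the intron it fell to 0.448 per kb from 60 to 70 bp before the acceptor and to 0.553 per kb from 50 to 60 bp after the donor. At short introns the profile was flatter. Its highest exon bins, 1.28 per kb from 90 to 100 bp inside the downstream exon and 1.27 at the same distance inside the upstream exon, were below those at long introns. Its lowest intron bins were 0.688 per kb from 40 to 50 bp before the acceptor (174 positions) and 0.728 per kb from 110 to 120 bp after the donor (101 positions). The first 10 bp of a short intron had 1.12 per kb and the last 10 bp of its upstream exon 1.10. At long introns the same bins had 1.01 and 1.02 per kb, so neither kind showed a step at the donor. On the acceptor side the last 10 bp of the intron had 0.810 per kb and the first 10 bp of the exon 0.760. Bins far from a splice site hold only the longer exons or introns, so the far ends of a profile describe a subset.

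**Figure D2:**
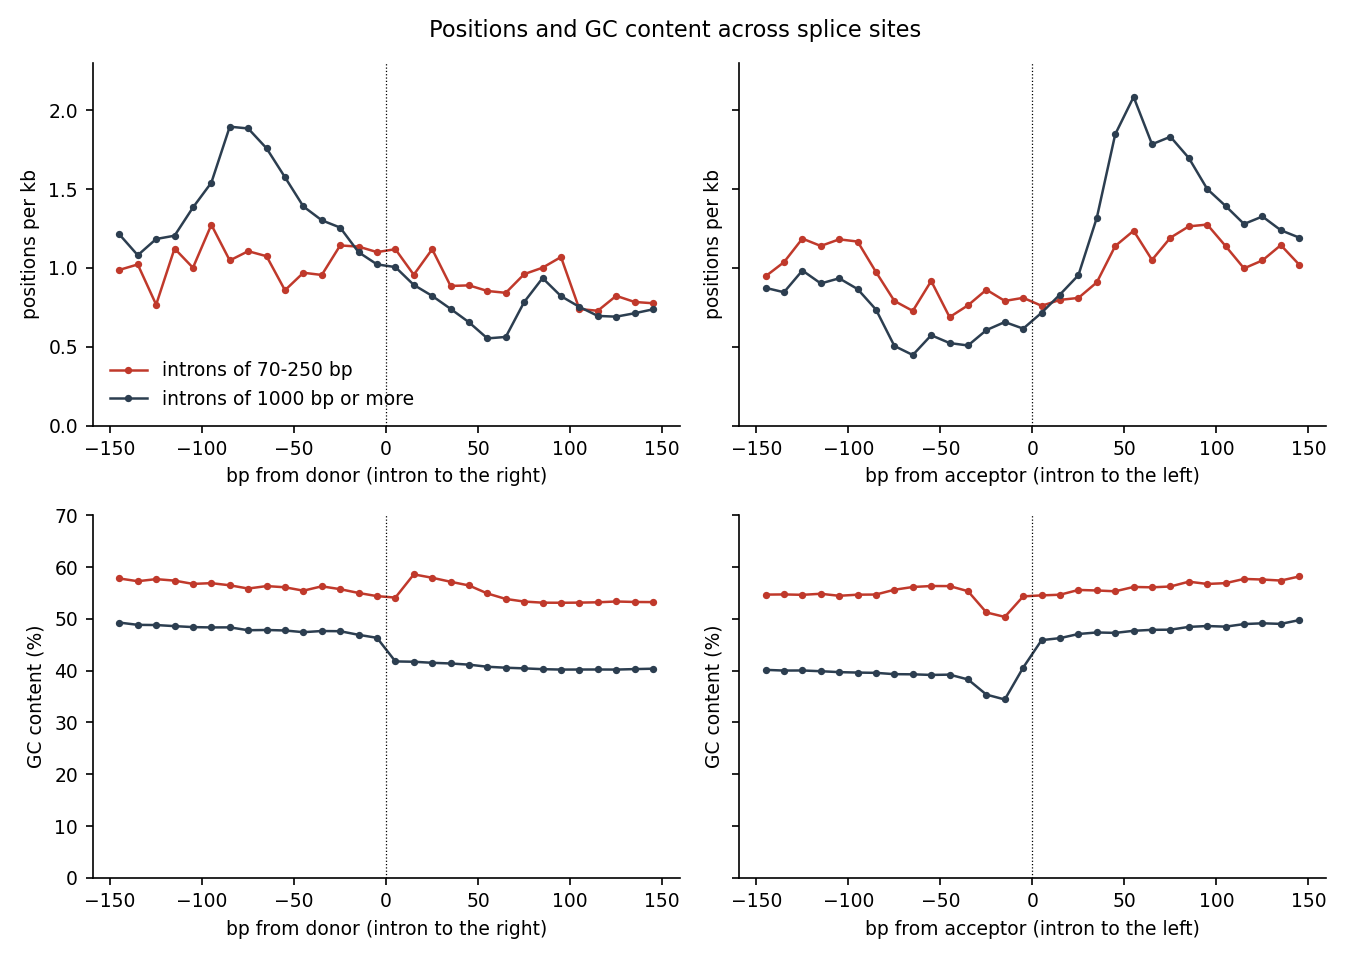
Positions per kb (top) and GC content in percent (bottom) in 10-bp bins by distance from the donor (left, intron to the right of 0) and the acceptor (right, intron to the left of 0), for introns of 70-250 bp and for exons between introns of 1000 bp or more. The long-intron profile rises to 2.08 per kb inside the exon and the short-intron profile stays between 0.688 and 1.28 in the range drawn.

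In windows of the same size in both kinds of unit, 35 bp of exon and 35 bp of intron at each splice site, short introns had 0.966 positions per kb on the exon side and 0.922 on the intron side. Long introns had 1.02 and 0.746. The log2 ratios were 0.17 ± 0.38 and 0.44 ± 0.26 (SD, n = 22 chromosomes), above 0 on 14 and 21 chromosomes. The difference of -0.27 ± 0.38 was negative on 19 of 22 (permutation p = 0.00341, adjusted 0.00597). In genes with both kinds of unit it was -0.11 ± 0.45 and did not pass (permutation p = 0.271), and likewise with the 100-bp GC expectation, at -0.13 ± 0.34 (permutation p = 0.0930).

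In the 35-bp windows, pooled, GC content was 55.1% on the exon side and 54.9% on the intron side of short introns. At long introns the values were 46.8 and 39.3%. The comparisons below instead took whole exons, whole short introns and the near 60 bp of long introns. Over chromosomes, the exons beside short introns had 55.1% GC ± 4.39 (SD, n = 22) and the introns 52.5% ± 7.26. Exons between long introns had 48.9% ± 3.10 and the near 60 bp of intron 40.6% ± 5.16. The exon excess was 2.62 percentage points ± 2.997 at short introns, positive on 18 of 22 chromosomes (permutation p = 0.00037, adjusted 0.00074), and 8.33 points ± 2.12 at long ones, positive on 22 of 22 (permutation p = 1e-05, adjusted 2.33e-05). The difference of -5.70 points ± 1.63 was negative on 22 of 22 chromosomes (permutation p = 1e-05, adjusted 2.33e-05). Member by member, the median difference was -0.35 points (quartiles -5.79 and 6.29), and 51.7% of short introns were richer in GC than their exons. At long introns the median was 8.09 points (quartiles 2.17 and 13.4) and 17.9% of units had the richer intron. From the donor, GC content at short introns stood at 54.4% in the last 10 bp of the exon and 58.6% from 10 to 20 bp into the intron. At long introns it went from 46.3 to 41.7% over the same distance. Before the acceptor it dipped in both kinds, to 50.4% and 34.4% from 10 to 20 bp into the intron, where the pyrimidine tract lies.

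**Figure D3:**
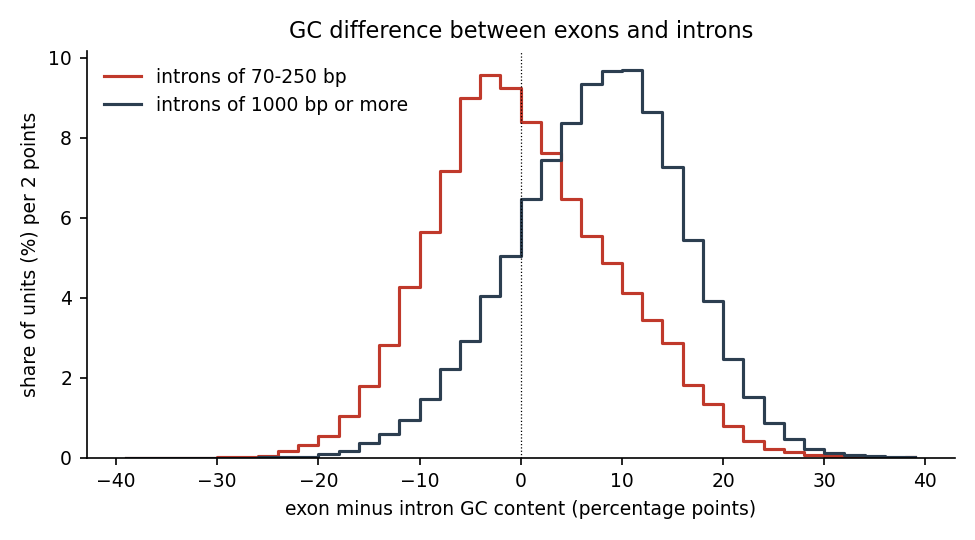
Share of units (%) by exon minus intron GC content in percentage points, in steps of 2 points, for introns of 70-250 bp and for exons between introns of 1000 bp or more (intron content from the 60 bp on either side). The short-intron curve is centred near 0 (median -0.35) and the long-intron curve lies to its right (median 8.09).

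The letters at the intron ends differed in kind as well. GT-AG ends were found in 99.2% of members (25084), GC-AG in 192 and AT-AC in 13. The triplet GGG, which is known as an intronic splicing enhancer in short introns, occurred 56.3 times per kb in the first 35 bp of short introns, overlapping matches included and on the sense strand, against 18.2 per kb in those of long introns. At least 1 match was present in 61.6 and 30.02% of the introns. The run TTTT was rarer in the last 35 bp of short introns, at 18.2 against 48.1 per kb, and present in 26.9 against 60.3% of them. The share of pyrimidines from 4 to 23 bases before the acceptor was alike at 73.3 and 73.4%, but T made up 36.3 and 50% of these bases. CG dinucleotides in the first 35 bp numbered 22.9 and 10.9 per kb. These are descriptions of the sequence, and no test was made of them.

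Members were then divided by the GC difference within the unit, which uses no position. At the 7290 members whose intron was over 5 points poorer in GC than the mean of its exons, exon preference exceeded that at the 10837 members within 5 points by 1.78 ± 0.83 on the log2 scale, on 22 of 22 chromosomes (permutation p = 1e-05, adjusted 2.33e-05). Set against the GC expectation, this excess was 1.37 ± 0.72 with the 200-bp window and 1.06 ± 0.71 with the 100-bp one, both on 21 of 22 chromosomes. Where the intron was richer by over 5 points (7168 members), introns had 1.24 positions per kb and exons 0.625, so exons had 0.506 times the intron density. In members within 5 points the densities were 1.06 in introns and 1.03 in exons. Where the intron was poorer by 5 to 15 points (5680 members), introns had 0.505 and exons 1.30 per kb, or 2.58 times as much. Where it was poorer by over 15 points (1610 members), introns had 0.170 per kb (36 positions, 95% exact Poisson interval 0.119 to 0.235) and exons 1.38 (1.27 to 1.49), or 8.12 times as much. The exon interval is too narrow where neighbouring members share an exon, which is then counted with each.

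Exons between long introns went through similar ratios when divided in the same way, but not through the same densities. Where the intron was richer they had 0.952 positions per kb and the intron 1.81, each above the value at short introns. Their exon-to-intron ratios in the 4 classes, in the same order, were 0.527, 1.05, 2.95 and 7.74. Tested within each class, the log2 preference at short minus that at long introns was -0.019 ± 0.46 (n = 19 chromosomes, permutation p = 0.869) where the intron was richer, and -0.12 ± 0.41 (n = 21, permutation p = 0.204) within 5 points. It was 0.020 ± 0.66 (n = 22, permutation p = 0.886) at 5 to 15 points and 0.18 ± 1.11 (n = 14, permutation p = 0.564) at over 15 points. Only chromosomes with at least 5 positions expected in every window entered these tests. None of the 4 passed, and with SDs of 0.41 to 1.11 over chromosomes they do not show that both kinds are alike. The kinds differed in how many units fell into each class: 28.3, 42.8, 22.5 and 6.36% of short introns, against 7.31, 28.5, 45.6 and 18.6% of long-flanked exons. This division by class was made after the overall difference had been seen.

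**Figure D4:**
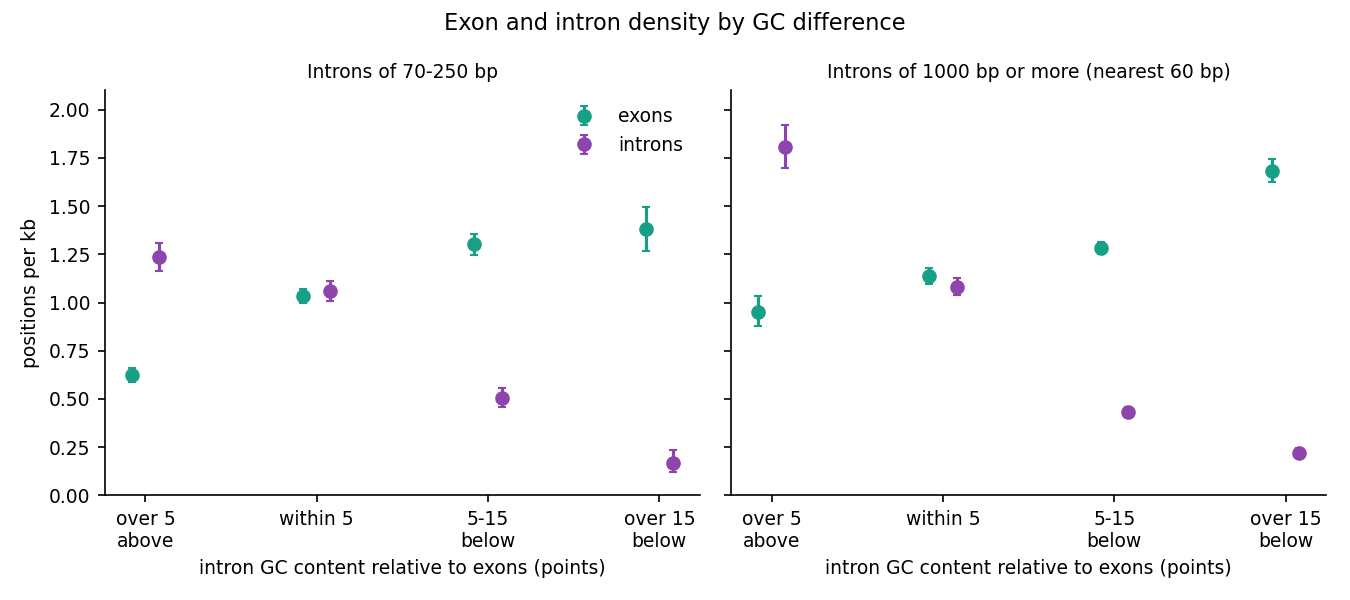
Positions per kb in exons and introns by the GC content of the intron relative to its exons (percentage points), for introns of 70-250 bp (left) and for introns of 1000 bp or more, nearest 60 bp (right). Bars are 95% exact Poisson intervals, which cover counting error only. At short introns an exon shared by neighbouring members is counted with each, so exon bars there are too narrow. In both panels introns lie above exons in the first class and far below them in the last, at 0.170 against 1.38 per kb for short introns.

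The profiles of members with a poorer and with a richer intron had opposite shapes. In members with the poorer intron, the densest exon bins had 2.06 per kb (70 to 80 bp into the upstream exon) and 2.11 per kb (50 to 60 bp into the downstream one), close to the 1.90 and 2.08 per kb found at long introns. It fell to 0.110 per kb from 60 to 70 bp before the acceptor, on 8 positions. In members with the richer intron the exon was the low part, at 0.276 per kb from 50 to 60 bp before the donor and 0.347 per kb from 50 to 60 bp after the acceptor, and the intron rose to 1.70 per kb from 70 to 80 bp after the donor. In members within 5 points the bins from the donor stayed between 0.614 and 1.42 per kb. From the acceptor, their intron density was lowest 40 to 50 bp away, at 0.664 per kb, and had 1.48 and 1.49 per kb in the bins from 90 to 110 bp. A single bin at 190 to 200 bp, which holds only the longest introns, reached 1.82 per kb on 43 positions. The bins from 170 to 190 bp had 0.764 and 0.956 per kb.

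**Figure D5:**
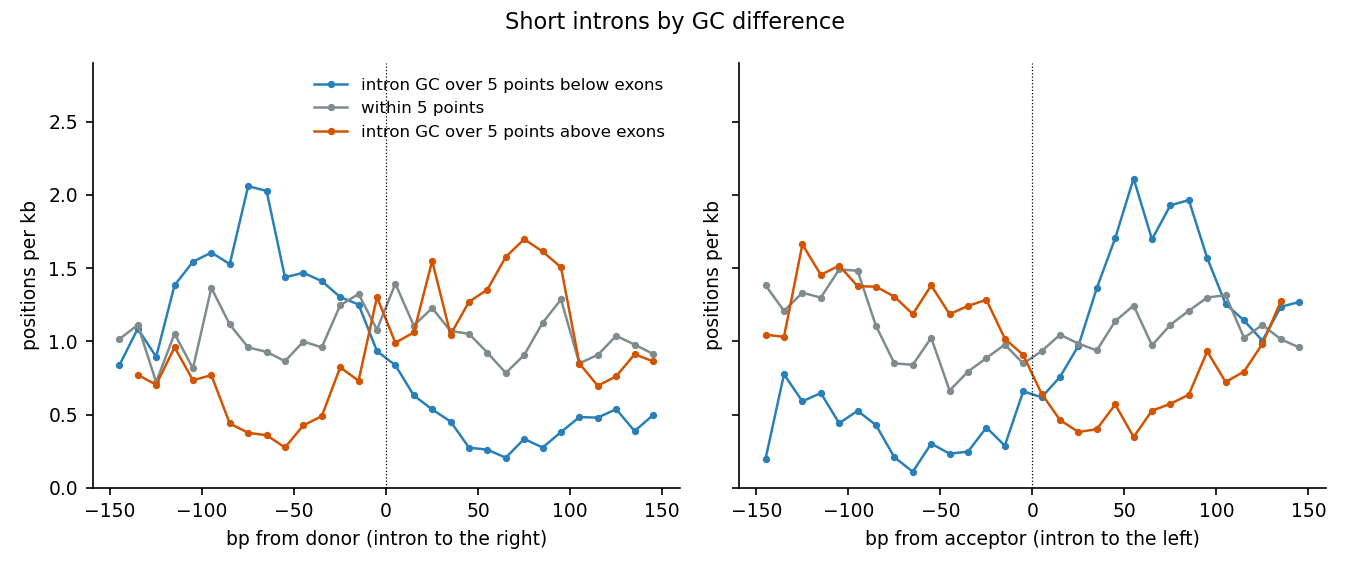
Positions per kb in 10-bp bins by distance from the donor (left, intron to the right of 0) and from the acceptor (right, intron to the left of 0), for short introns whose GC content lies over 5 points below, within 5 points of, or over 5 points above that of their exons. The first curve is high in the exon (2.06 and 2.11 per kb at most) and the last is high in the intron (1.70 per kb from the donor).

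The GC content of the whole unit, the mean of intron and exons, ordered the members in the same sense. Below 40% (3924 members) introns had 0.144 positions per kb and exons 0.995, which is 6.89 times as much. The ratio was 2.98 at 40 to 45%, 1.70 at 45 to 50%, 1.14 at 50 to 55% and 0.928 at 55 to 60%. Above 60%, where 10815 members lie, introns had 1.04 per kb and exons 0.768, a ratio of 0.739. At exons between long introns the ratio passed from 4.71 below 40% to 0.682 above 60%. Intron density rose with GC content up to 55 to 60%, from 0.144 to 1.28 per kb, and exon density was highest at 45 to 50%, at 1.52 per kb.

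Length within the range of 70 to 250 bp mattered less. Intron density was 0.742 per kb at 70 to under 90 bp, 0.842 at 90 to under 110 bp, 0.922 at 110 to under 150 bp, 0.956 at 150 to under 200 bp and 1.01 at 200 to 250 bp. Exon density rose beside it from 0.861 to 1.16 per kb, and the ratio stayed between 1.09 and 1.16. The preference at members under 110 bp minus that at members of 150 to 250 bp was -0.049 ± 0.29 (SD, n = 22 chromosomes) and did not pass the test (permutation p = 0.442, adjusted 0.476). The choice of exon window changed this. With only the 75 bp of exon nearest the intron the difference was -0.20 ± 0.31 (permutation p = 0.00699), and with internal exons of 100 to 300 bp it was -0.47 ± 0.89 (permutation p = 0.0204). The 1944 members within 1000 bp of a start site of a protein-coding gene, 7.69% of all, had the higher density in the intron, with 1.03 against 0.806 per kb. Their GC content was also high, at 62.7% in introns and 62.2% in exons.

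Among the 10 genes with the most members, 9 are described here. The denser part was the exons in some and the introns in others, but the intervals overlapped in all except TTN. TTN, which encodes the muscle protein titin (ENSG00000155657.29, chromosome 2, minus strand, members between 178527308 and 178799824), has 221 of them. Its introns held 9 positions in 27.6 kb, or 0.326 per kb (95% exact Poisson interval 0.149 to 0.619), and its exon windows 236 in 135 kb, or 1.75 (1.53 to 1.99). An exon shared by neighbouring members is counted with each of them. Exon intervals for this gene and for the genes and families below are therefore too narrow. Its introns have 32.1% GC and its exons 44.3%. Without TTN the exon-to-intron ratio over all members was 0.27 ± 0.55. COL7A1, the collagen of anchoring fibrils (chromosome 3, 97 members), had 1.73 per kb in introns (1.07 to 2.65) and 1.90 in exons (1.25 to 2.76). Intervals of intron and exon density overlapped in this gene, whose introns have 58.6% GC and exons 65.2%.

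LAMA5, a laminin chain of basement membranes (chromosome 20, 50 members), had 0.958 per kb in introns and 0.936 in exons. HSPG2, which encodes the basement membrane proteoglycan perlecan (chromosome 1, 45 members), held 1 position in its introns and 8 in its exons. STAB1, a scavenger receptor of macrophages and endothelium (chromosome 3, 45 members), held 17 in each, which is 2.85 per kb in introns (1.66 to 4.56) and 1.66 in exons (0.964 to 2.65). All 3 have over 60% GC in introns and exons alike. KMT2D, a histone methyltransferase (41), had the lower density in introns, at 0.668 against 1.16 per kb. MYO15B (44), COL11A2, a cartilage collagen (43), and NBEAL2, needed for platelet granules (41), had the higher one there, at 3.27 against 2.67, 3.04 against 2.67, and 2.31 against 1.95 per kb. Introns of COL11A2 have 57.5% GC and its exons 66.3%, so the denser part was the poorer in GC. In KMT2D, with 53.1 and 60.6%, the denser part was the richer. TTN is the only one of these 9 in which the intervals did not overlap.

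Families taken by gene symbol differed in level. In 37 collagen genes, whose repeats are coded by many small exons, 475 members had 1.86 positions per kb in introns (1.54 to 2.22) and 2.01 in exons (1.69 to 2.36). Both are above the values over all members. Introns of collagen genes have 52.9% GC and exons 62.6%, yet the 2 densities lay close together. Over all members with an intron poorer by 5 to 15 points they were 0.505 and 1.30 per kb. In 55 genes of ribosomal proteins, 85 members had 0.458 per kb in introns (6 positions) and 0.678 in exons (12 positions). Proteasome subunits (106 members in 31 genes) had 0.666 and 0.569, keratins (100 members) 0.872 and 1.19, and ABC transporters (228 members) 0.846 and 1.11. Laminins (103 members in 10 genes) had 0.772 per kb in introns (0.370 to 1.42) and 1.56 in exons (1.15 to 2.07), and myosin heavy chains (171 members in 14 genes) 0.754 (0.422 to 1.24) and 1.41 (1.10 to 1.78). Genes of the pigment epithelium gave only 16 members, in ABCA4, PMEL, RDH5, RPE65 and STRA6, with 3 intronic and 7 exonic positions. ABCA4 and RDH5 each held 1 in an intron and 0 in exon windows, PMEL 1 and 2, RPE65, the isomerase of the visual cycle, 0 and 5, and STRA6 0 in either, which is too few to compare.

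The members with the most positions inside the intron had 3 each, and 4 of these are described here. One lay in CD72, a B-cell receptor (intron 1 of 8, chr9:35618122-35618221, minus strand, 100 bp), with positions at bases 24, 48 and 68. The others were intron 4 of 5 of MPIG6B (chr6:31724628-31724764, plus strand), intron 6 of 63 of MYO15B (chr17:75592081-75592237, plus strand) and intron 27 of 31 of TSPOAP1 (chr17:58305644-58305832, minus strand). Neighbouring positions in these introns lay closer together than the DNA of a single nucleosome is long. The 4 introns have 57.0, 54.7, 62.4 and 64.6% GC in this order, against a median of 59.1% over all members.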

How the data were processed

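The authors deposited 1 list, with the chromosome, start and end of 1-bp intervals and no other value. Whether it joins both batches is not stated in the sources used here. Bowtie2 and hg38 are named in the submitters' processing notes. The peak caller, the threshold and the number of reads behind the list are not given in the sources used here, so depth is unknown. The name of the deposited list carries what reads as a fragment-length range, but how it was applied is not described. Distinct rows on chromosomes 1-22 were counted in windows taken from GENCODE 44 on the hg38 reference. Each intron counted once, while an exon between 2 members counted once per intron (41920 distinct exon windows of 50590). Log2 ratios used a pseudocount of 0.5 on each count and, for each chromosome, the pair of densities named. Their signs were flipped at random over chromosomes (two-sided, 100000 draws), and p-values were adjusted by Benjamini-Hochberg over 14 comparisons. The procedure was checked on simulated counts. These had the same true ratio on every chromosome, so the check did not cover real differences between chromosomes. The GC expectation gave each base the autosomal density of its GC bin, 2% wide. Members, gene lists and tests were chosen with earlier results of these data known. Named genes were the 10 with the most members and the 5 members with the most intronic positions, and the lists went by gene symbol. Some items that the rules picked are not reported here. Alternatives are given in the closing section. Computation used Python 3.11.15 with numba 0.67.0, pandas 2.3.3, scipy 1.17.1 and numpy 2.4.6.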

Additional observations from a re-analysis of the deposited data

How the results depend on the processing

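Over the 14 comparisons, 134 alternative values were computed, 130 of them with a test. Of these, 107 left both the direction and the call as they were. In 15 the sign stayed and the call was lost, in 2 the call was gained, and 6 had the opposite sign, whether passing or not. Some of the 107 repeat the main value by construction. Counting each exon once cannot change comparisons that use upstream or downstream exons separately, and 75 bp of exon cannot change the comparison of introns. The 4 untested values, from pooled densities, kept their sign. With the 200-bp GC expectation the log2 ratio of exons to short introns was 0.19, that of upstream exons 0.20 and that of downstream exons 0.18, and none passed. Short introns against the near part of long introns then stood at -0.020, and the length comparison, which did not pass in either case, at 0.015. With the 100-bp expectation these 4 values were 0.065, 0.074, 0.064 and -0.41, and the difference in 35-bp windows was -0.13. Without chromosomes 9 and 15, exons stood at 0.28 and downstream exons at 0.28, and with 75 bp of exon the downstream value was 0.20. Against 300 to 500 bp into long introns, the preference at short minus long introns was -0.098 and short introns were less dense than long ones, at -0.21. With internal exons of 100 to 300 bp, short introns against the near part of long ones stood at 0.12 and the length comparison at -0.47, and with 75 bp of exon the latter was -0.20. In genes with both kinds the 35-bp difference was -0.11. Within the classes of GC difference, chosen after the data were seen, the preference at short minus long introns was -0.019, -0.12, 0.020 and 0.18. The cause of these changes was not tested. No value per batch could be computed, since the list does not tell the batches apart.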

Other observations

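Where both exons of a member held a position and the intron held none, which was the case in 545 members, the distance between the nearest positions across the intron had a median of 279 bp and quartiles of 203 and 366 bp. Of the 509 such pairs between 70 and 500 bp apart, 33.6% were 150 to 220 bp apart, against 38.1% of the 967217 neighbouring pairs at the same distances on all autosomes. Since such a pair spans an intron, short distances are removed by construction.

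Just outside the length range, 87 introns of 40 to 69 bp had 4 positions and 3740 introns from above 250 up to 299 bp had 1.05 per kb. Just inside it, 1508 introns of 70 to 79 bp had 0.717 per kb and 932 introns of 240 to 250 bp had 0.947 per kb.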
